A study of Mus musculus with 5 samples.

Results

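The miR-297, miR-466, miR-467 and miR-669 families of the mouse are a set of repeated miRNA genes, most of which lie in 1 intron of Sfmbt2. Their members were taken by name: all entries of the count table that start with miR-297, miR-466, miR-467 or miR-669 followed by a letter, a hyphen or nothing. The rule used no measured value and found 80 of the 1966 mature miRNAs in the table, 6 of miR-297, 31 of miR-466, 13 of miR-467 and 30 of miR-669. A count was found for 31 of the 80 (38.8%), against 517 of all 1966 (26.3%).

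The data were small RNA libraries from extracellular vesicles (EVs), membrane vesicles that cells release, of murine mesenchymal stem cells of the C57BL/6-GFP transgenic strain. All cells were kept for 48 h in a serum-reduced medium before the vesicles were pelleted. The 2 not freeze-dried libraries came from unmodified EVs. The 3 freeze-dried libraries came from EVs that were diluted with 25 mM trehalose, frozen at -80 °C, dried overnight and rehydrated for 1 h. All 5 libraries carry the same protocol text, which has the pelleted EVs taken up in buffer with or without 25 mM trehalose. It does not say which of these buffers the not freeze-dried EVs were in, nor whether replicates came from separate cultures. The series compared the miRNA content of the EVs between these conditions.

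Sfmbt2 encodes a Polycomb group protein and is imprinted in the mouse, with expression from the paternal allele in extraembryonic tissue. Its large miRNA cluster is known from mouse embryonic stem cells and placenta and arose by repeated duplication of a short unit, so that many hairpins carry the same or nearly the same mature miRNA. A hairpin precursor is cut into a duplex of a 5p and a 3p strand, and usually more of one strand is kept in the silencing complex. Hairpins of this cluster are rich in alternating uracil and guanine on the 5p strand and in alternating cytosine and adenine on the 3p strand.

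In GENCODE M21, which uses the GRCm38 build, Sfmbt2 lies on the plus strand at chr2:10370510-10595253. Of 82 annotated hairpins that carry a member's name, 72 lie inside the gene on its strand. All 72 are in intron 10 of the gene's 23-exon transcript and span 51.6 kb, from 10466663 to 10518279. The other 10 lie elsewhere. By location, 66 of the 80 mature miRNAs have all their hairpins inside Sfmbt2, 5 have hairpins both inside and elsewhere, and 9 have them only elsewhere. Of the 14832 counts of the families, 14824 belonged to the first class, 8 to the second and 0 to the third. miR-669c-5p alone gave 8415 of those in the first class. A count was found for 30 of the 66, 1 of the 5 and 0 of the 9, against 26.3% of all 1966. Whether the counts depend on location was not tested.

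The 9 miRNAs with hairpins only outside Sfmbt2 are miR-466i-5p, miR-466i-3p, miR-466j, miR-466k, miR-466q, miR-467f, miR-467g, miR-467h and miR-669n. RefSeq sequences on GRCm38.p6 matched 8 of the 80 members, all of them among these 9. They are shown as the only members with a matched sequence. None of them had a count in any library, and no sequence of a counted member was compared with them. Capitals mark the seed, bases 2 to 8 from the 5′ end, which sets most of a miRNA's target choice.
miR-466k: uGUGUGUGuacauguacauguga
miR-466j: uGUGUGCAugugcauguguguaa
miR-669n: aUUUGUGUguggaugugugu
miR-467h: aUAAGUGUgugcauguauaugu
miR-466q: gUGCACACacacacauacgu
miR-467f: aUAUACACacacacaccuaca
miR-467g: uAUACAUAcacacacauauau
miR-466i-3p: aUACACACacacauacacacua

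The first 4 are of the UG type and the other 4 of the CA type. Steps from U to G or from G to U made up 59.1% of all steps between neighbouring bases in miR-466k, 63.6% in miR-466j, 68.4% in miR-669n and 47.6% in miR-467h. The median over 1675 mature miRNAs of the table with a RefSeq sequence was 14.3%, and 8 of the 1675 reached 50%. Steps from C to A or from A to C made up 63.2% in miR-466q, 65.0% in miR-467f, 50% in miR-467g and 71.4% in miR-466i-3p, against a median of 10.0%, and 5 of the 1675 reached 50%. The 1675 include the 8 listed miRNAs themselves and no other member of the families. Despite this likeness the 8 sequences have 8 different seeds. Their mature sequences lie at chr3:85467396-85467418 (miR-466k), chr10:60960802-60960824 (miR-466j), chr3:115979905-115979924 (miR-669n), chr9:115381898-115381919 (miR-467h), chr3:28419988-28420007 (miR-466q), chr11:69635419-69635439 (miR-467f), chr5:34732872-34732892 (miR-467g) and chr13:17747552-17747573 (miR-466i-3p). miR-467f and miR-467g are on the minus strand and the other 6 on the plus strand. The mature sequences of the members inside Sfmbt2 were not used here.

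Total counts were 912080 and 131507 in not freeze-dried libraries 1 and 2 and 2914305, 2473178 and 192450 in freeze-dried libraries 1, 2 and 3, so that not freeze-dried 2 and freeze-dried 3 were shallow. The mesenchymal and fibroblast miRNAs listed for a check of the cell type all had counts (10 of 10), with 24.4% to 25.3% of counts without and 17.8% to 20.2% with freeze-drying. Of 17 embryonic stem cell miRNAs, of the miR-290 and miR-302 families, 16 were at 0 in all libraries and 1 had a count in freeze-dried 3 only, where the list held 0.00156% of counts. Leukocyte miRNAs, with counts for 3 of 5, held 0.0567% to 0.123% of counts without and 0.0852% to 0.138% with freeze-drying. Red cell miRNAs (4 of 4) held 0.0758% to 0.120% and 0.0922% to 0.170%, endothelial ones (2 of 2) 0.0160% to 0.0403% and 0.00623% to 0.0218%, and epithelial ones (4 of 7) 0.0707% to 0.0736% and 0.0203% to 0.0421%. The part of other cell types in the values below was not tested, and fewer vesicles of a source and less RNA per vesicle cannot be told apart in these libraries.

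The families together made up a small share of the counts in every library. Their share was 0.211% of counts in not freeze-dried 1 (exact 95% binomial interval 0.201% to 0.220%) and 0.218% in not freeze-dried 2 (0.194% to 0.245%). It was 0.212% (0.206% to 0.217%), 0.237% (0.230% to 0.243%) and 0.317% (0.293% to 0.344%) in freeze-dried 1, 2 and 3. The shallow library freeze-dried 3 stood highest. On these unscaled counts the 2 groups overlapped, since freeze-dried 1 lay between the not freeze-dried libraries. The group means were 0.214% ± 0.0055 (SD, n = 2) and 0.255% ± 0.0554 (SD, n = 3). With libraries scaled by edgeR's TMM factors the means were 0.204% and 0.266%, and the groups did not overlap.

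miR-669 was the leading subfamily in all 5 libraries, with 11189 counts or 75.4% of the families' counts. miR-467 followed with 2139 counts (14.4%) and miR-466 with 1504 (10.1%). The 6 miR-297 miRNAs had 0 counts in every library. In the deepest library, freeze-dried 1, an exact 95% interval allows miR-297 at most 0.000127% of counts. The share of miR-669 within the families was 74.6% and 66.2% in not freeze-dried 1 and 2 and 78.2%, 73.1% and 76.1% in freeze-dried 1, 2 and 3, so the groups overlapped. Its share of the library was 0.157% and 0.144% without and 0.165%, 0.173% and 0.242% with freeze-drying, which do not overlap. The exact 95% interval of not freeze-dried 2, 0.125% to 0.167%, took in the 0.165% of freeze-dried 1. For comparison, 17.4% of the 327 miRNAs tested below had scaled counts without overlap between the groups. For miR-467 the shares within the families were 20.8% and 19.5% without freeze-drying and 12.5%, 13.8% and 17.3% with it, which do not overlap. The exact 95% intervals of not freeze-dried 2 (15.1% to 24.6%) and freeze-dried 3 (14.4% to 20.6%) did overlap. As a share of the library, however, miR-467 was 0.0432% ± 0.0009 (SD, n = 2) and 0.0380% ± 0.0151 (SD, n = 3), within the spread of the freeze-dried libraries. miR-466 made up 4.53% and 14.3% of the families without and 9.25%, 13.1% and 6.55% with freeze-drying, and its 2 not freeze-dried libraries were its lowest and its highest.

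**Figure D1:**
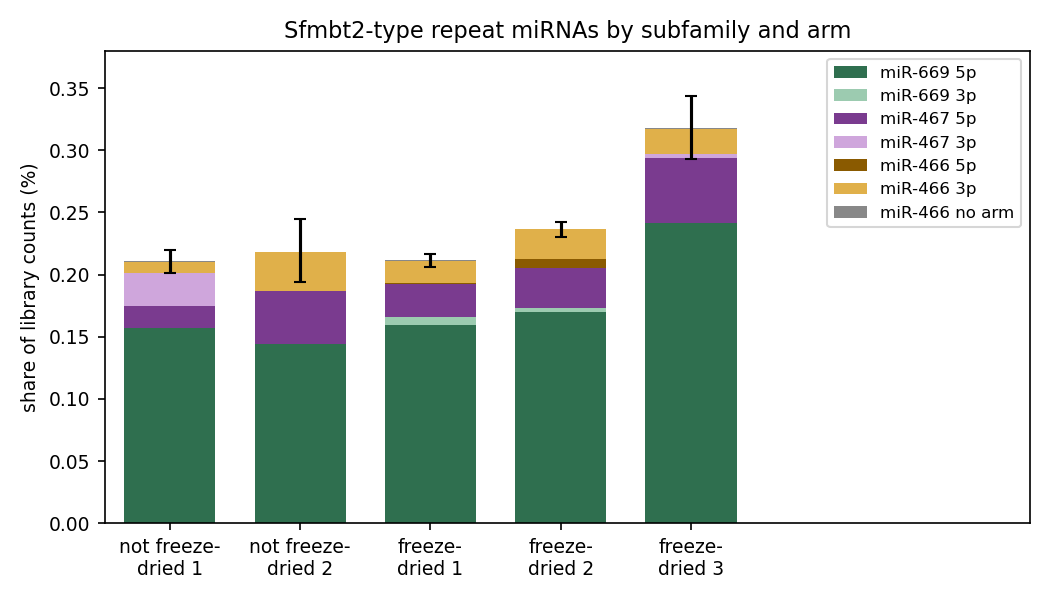
Share of each library's counts (percent, vertical axis) taken by the miR-466, miR-467 and miR-669 families in the 5 libraries, stacked by subfamily and strand; error bars are exact 95% binomial intervals of the total and cover counting error only. The 5p strand of miR-669 forms the largest block in every bar, and the total runs from 0.211% to 0.317%.

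The subfamilies differed in the strand that was counted. Summed over the 5 libraries, miR-669 had 10924 counts from 5p and 265 from 3p miRNAs, and miR-467 had 1897 and 242. In miR-466 the order was the other way round, with 1282 counts from 3p, 196 from 5p and 26 from miR-466g, which is named without a strand. Detection followed the same order: a count was found for 8 of 12 miR-669 5p and 3 of 14 miR-669 3p miRNAs, for 5 of 5 and 2 of 5 of miR-467, and for 4 of 13 and 8 of 13 of miR-466. None of the 4 unnamed-strand miR-669 and 3 unnamed-strand miR-467 miRNAs had a count, and 1 of 5 in miR-466 had. The order of the summed counts held in every library for miR-669 and miR-466. For miR-467 it was reversed in not freeze-dried 1, with 237 counts from 3p and 163 from 5p. Counts compare strands as sequenced, since capture by adapters can differ between sequences.

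Over all families the 5p strand held 87.8% of counts and the 3p strand 12.1%. The 3p strand made up 16.6% and 14.3% of the families' counts in not freeze-dried 1 and 2 and 11.3%, 11.8% and 7.20% in freeze-dried 1, 2 and 3. As a share of the library it was 0.0350% and 0.0312% against 0.0239%, 0.0278% and 0.0229%, or 0.0331% ± 0.0027 (SD, n = 2) against 0.0249% ± 0.0026 (SD, n = 3). The groups did not overlap, but different miRNAs made up the 3p counts of the not freeze-dried libraries. In not freeze-dried 1, miR-467a-3p and miR-467d-3p gave 237 of 319 counts of 3p miRNAs, and in not freeze-dried 2 all 41 came from miR-466.

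A single miRNA, miR-669c-5p, gave 8415 of the 14832 counts. Its 1 hairpin lies at chr2:10509296-10509404, 138.8 kb from the start of Sfmbt2, near the 3′ end of the hairpin array. By mean CPM (counts scaled to the size of the library, here with edgeR's TMM factors) it ranked 80th among the 517 miRNAs with a count, ahead of miR-669a-5p at 124th and miR-467c-5p at 140th. Along the intron the counts per hairpin had 2 further high points, both from names with 1 hairpin: miR-467c, near the other end of the array at chr2:10473931-10474027, with 971 counts over both strands, and miR-467e at chr2:10505721-10505807 with 359. The 12 hairpins of miR-669a, which run from 103.9 to 139.7 kb, gave 165 counts each when the counts were divided by hairpins, the 8 of miR-466b 93.6 and the 10 of miR-467a 65.5. Of 27 names with 1 hairpin, all inside Sfmbt2, 16 had a count, and they held 10861 counts. Of 9 names with several hairpins, 45 inside the gene in all, 7 had a count, and they held 3971.

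**Figure D2:**
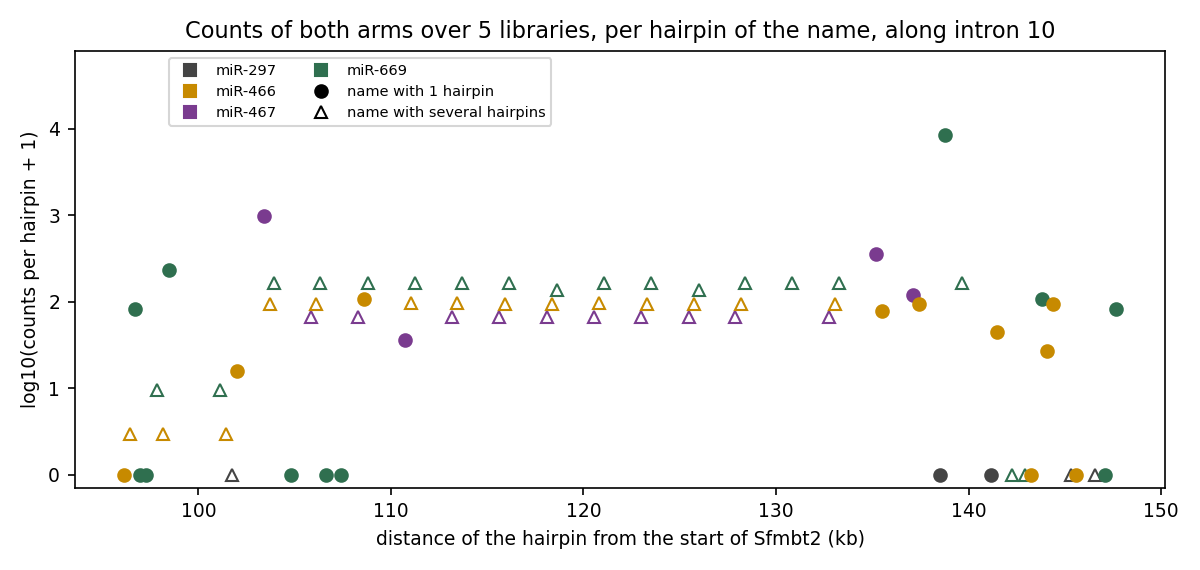
Counts of both strands over the 5 libraries, divided by the number of hairpins of the name (vertical axis, log10 of counts per hairpin plus 1), against the distance of each hairpin from the start of Sfmbt2 in kb; filled circles are names with 1 hairpin and open triangles names with several, whose counts cannot be assigned to a hairpin. miR-669c stands above all other names at 138.8 kb with 8415 counts, and the repeated names form level lines because each of their hairpins is given the same value.

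miR-669c-5p had 932 and 99 counts in not freeze-dried 1 and 2, and 3236, 3801 and 347 in freeze-dried 1, 2 and 3. Its CPM values were 913 and 757 without freeze-drying and 1176, 1475 and 1974 with it. All 3 freeze-dried libraries were above both not freeze-dried ones, at 1542 ± 403 (SD, n = 3) against 835 ± 110 (SD, n = 2). The log2 fold change was 0.88 (SE 0.43, 95% interval -0.076 to 1.84), and the difference did not pass edgeR's quasi-likelihood test (Benjamini-Hochberg adjusted p = 0.976). It had the smallest SE of the tested members. Within the families it made up 48.5% and 34.5% of counts without freeze-drying and 52.5%, 65.0% and 56.8% with it, also without overlap. The other members together held 0.108% and 0.143% of the library without and 0.101%, 0.0828% and 0.137% with freeze-drying, 0.126% ± 0.0245 (SD, n = 2) and 0.107% ± 0.0277 (SD, n = 3), and here the groups overlapped.

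Of the 80 members, 18 passed the filter on low counts and were tested, among 327 miRNAs of the whole table. edgeR called 0 of the 18 at an adjusted p under 0.05, as it called 0% of all 327. At an unadjusted p under 0.05 it had 1 member and 9 of all miRNAs, DESeq2 had 1 and 16, and limma-voom 0 and 15, and these too called 0 members. The fold change was above 1 for 9 members and under 1 for the other 9. This split moved with the fit, at 13 of 18 above 1 with limma-voom and 12 of 18 with the replicate block. With no filter it was 20 of 31. It was 13 of 23 without not freeze-dried 1, 20 of 27 without not freeze-dried 2 and 21 of 28 in the 3 deep libraries alone. The median log2 fold change of the 18 was 0.12, against 0.02 over all 327, of which 167 were above and 160 below. The median was 1.09 without not freeze-dried 1, 1.63 without not freeze-dried 2 and 1.55 in the deep libraries. Medians over all miRNAs there were 0.57, 0.50 and 0.42. In those fits 1 not freeze-dried library was left, so a member could pass the filter through 1 library alone. Their splits and medians are therefore over other sets of members than the 18. By subfamily 4 of 7 miR-669, 3 of 5 miR-467 and 2 of 6 miR-466 members were above 1, with medians of 0.88, 0.24 and -0.09. By strand, 6 of 10 tested 5p members and 3 of 8 tested 3p members were above 1. Of the 6 miR-466 members, 5 belong to 1 set described below, whose reads cannot be told apart between names. The pair of miR-669a-5p and miR-669p-5p is another such set. These members are therefore not separate values. With each set counted as 1, 8 of 13 members or sets were above 1. The median SE of the members was 2.47, against 1.59 over all tested miRNAs, and none of the 18 95% intervals lay within a 2-fold change either way, as 28 of the 327 did. No overlap of CPM between groups was found for 2 of 18 members (11.1%), miR-669c-5p and miR-467a-5p, both higher in freeze-dried EVs, against 17.4% of all 327, of which 8.87% were higher and 8.56% lower.

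**Figure D3:**
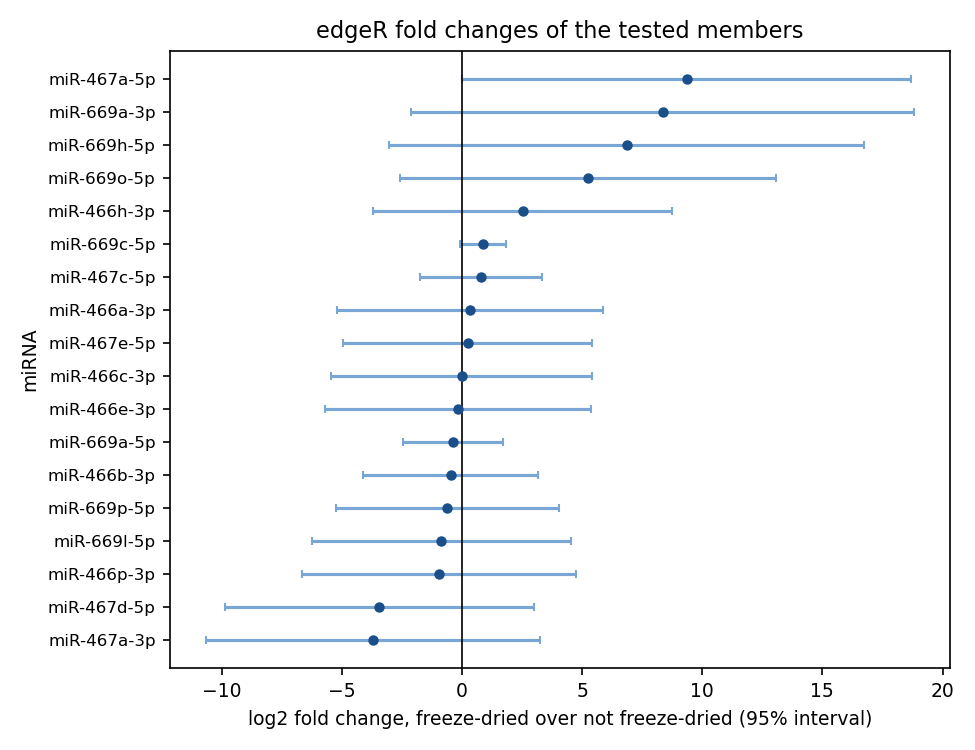
Log2 fold change, freeze-dried over not freeze-dried (horizontal axis), of the 18 tested members by edgeR; points are estimates and bars 95% intervals. miR-669c-5p has the shortest bar, -0.076 to 1.84, and every bar but that of miR-467a-5p crosses 0.

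Among the 5p miRNAs of miR-669, miR-669a-5p came next in abundance, with 364 and 48 counts without and 1065, 191 and 67 with freeze-drying. Its CPM was 357 and 367 without and 387, 74.1 and 381 with freeze-drying. Thus 4 libraries were near each other and freeze-dried 2 alone was low. The log2 fold change was -0.37 (SE 0.93), and 0.077 without freeze-dried 2. miR-669p-5p, which has 2 hairpins among those of miR-669a, was low in the same library: CPM values were 50.9 and 61.2 without and 62.5, 13.6 and 34.1 with freeze-drying (log2 fold change -0.61, SE 2.07). Reads of these 2 names cannot be told apart here, as described below, so their low values are not separate results. miR-669l-5p, from a hairpin at chr2:10468971-10469068, had 0 and 18 counts without and 138, 72 and 6 with freeze-drying. Its CPM of 137.7 in the shallow not freeze-dried 2 was its highest, and the log2 fold change of -0.85 (SE 2.41) became 8.91 without that library, a fitted value against a library at 0. miR-669o-5p, from chr2:10514300-10514395, had 3 and 0 counts without and 0, 44 and 39 with freeze-drying. Most of its signal lay in freeze-dried 3, at 222 CPM against 17.1 in freeze-dried 2, and its log2 fold change was 5.25 (SE 3.5). Without not freeze-dried 1 it was 9.80, and in the 3 deep libraries alone 1.52.

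In miR-467 only miR-467c-5p had a count in all 5 libraries: 84 and 30 without and 320, 446 and 91 with freeze-drying. Its CPM was 82.3 and 229 without and 116, 173 and 518 with freeze-drying, so that freeze-dried 3 was high and the other freeze-dried libraries lay between the not freeze-dried ones. The log2 fold change was 0.79 (SE 1.14), and -0.0070 without freeze-dried 3. miR-467e-5p had 77 and 0 counts without and 175, 101 and 6 with freeze-drying, with a log2 fold change of 0.24 (SE 2.31). miR-467d-5p, from chr2:10507630-10507714, had 2 and 26 counts without and 71, 0 and 0 with freeze-drying. Its 26 counts in not freeze-dried 2 equal 199 CPM, and its log2 fold change of -3.43 (SE 2.88) was 2.09 without that library.

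The strands of miR-467a did not appear together in the deep libraries, those with at least 500000 counts. miR-467a-3p had 217 counts in not freeze-dried 1, 0 in not freeze-dried 2, and 0, 0 and 5 in freeze-dried 1, 2 and 3. miR-467a-5p had 0 and 0 counts without and 191, 238 and 4 with freeze-drying. The 5p share of the name's counts was therefore 0% in not freeze-dried 1 (exact 95% interval up to 1.69%), 100% in freeze-dried 1 (98.1% to 100%) and 100% in freeze-dried 2 (98.5% to 100%), and 44.4% of 9 counts in freeze-dried 3 (13.7% to 78.8%). For not freeze-dried 2 no share can be given, since it had no count of either strand. edgeR's log2 fold change of miR-467a-3p was -3.71 (SE 3.10, adjusted p = 0.976). That of miR-467a-5p had a 95% interval of 0.025 to 18.7 (edgeR unadjusted p = 0.0495, adjusted p = 0.976). It passed the filter on low counts through the freeze-dried libraries alone. Its 22.8 CPM in the shallow freeze-dried 3 was no higher than the 22.9 CPM that 3 counts would be in not freeze-dried 2, so no difference between those 2 libraries was detectable.

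Other names also had a strand in some libraries only. For miR-669a the 5p share was 100% in not freeze-dried 1 and 2 and in freeze-dried 3, 86.7% in freeze-dried 1 (exact 95% interval 84.6% to 88.5%) and 70.7% in freeze-dried 2 (64.9% to 76.1%). miR-669a-3p had 164 and 79 counts in those 2 libraries and 0 in the other 3. For miR-466b the 5p share was 30.3% in freeze-dried 2 (25.9% to 34.96%), from 127 counts, and 0% in the other 4. In freeze-dried 3 that 0% rests on 4 counts of the name, with an upper limit of 60.2%. For miR-466c the 5p share was 24.1% in freeze-dried 1 (17.2% to 32.1%), from 33 counts, and 0% in the others. The 0% rests on 15, 7 and 2 counts in not freeze-dried 1 and 2 and freeze-dried 3. Upper limits there were 21.8%, 41.0% and 84.2%, so a like share could not be told from 0. In freeze-dried 2 the limit was 2.82%. miR-466e-5p, with 21 counts, and miR-466o-5p, with 15, were found in freeze-dried 2 alone. In not freeze-dried 1 and 2 and freeze-dried 3, miR-466e had 5, 3 and 1 counts of the 3p strand, too few to judge its 5p share. Thus the 5p miRNAs of miR-466 came from 2 deep freeze-dried libraries, and a different set from each.

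The 3p miRNAs of miR-466 carried most of that subfamily's counts. miR-466b-3p had 48 and 22 counts without and 256, 292 and 4 with freeze-drying. Its CPM was 47.0 and 168 without and 93.0, 113 and 22.8 with freeze-drying, lowest and highest in the 2 shallow libraries. Its log2 fold change was -0.47 (SE 1.63), 0.68 without not freeze-dried 2 and 0.049 without freeze-dried 3. miR-466c-3p stood at 14.7 and 53.5 CPM without and 37.8, 50.1 and 11.4 with freeze-drying, at a log2 fold change of -0.0025 (SE 2.42). miR-466e-3p and miR-466a-3p, each with 1 to 55 counts in every library, had log2 fold changes of -0.17 (SE 2.47) and 0.34 (SE 2.48). Without not freeze-dried 2 the values of miR-466c-3p and miR-466e-3p were 1.15 and 1.21, without freeze-dried 3 they were 0.49 and 0.23, and that of miR-466a-3p was -0.19 without not freeze-dried 1. miR-466h-3p, from chr2:10514891-10514971, behaved otherwise: it had 1 and 3 counts without and 23, 36 and 30 with freeze-drying. At 171 CPM it was highest in freeze-dried 3, where miR-466b-3p and miR-466c-3p were at their lowest. Its log2 fold change was 2.52 (SE 2.78), 0.14 without freeze-dried 3, 1.53 without not freeze-dried 1 and 5.82 without not freeze-dried 2.

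**Figure D4:**
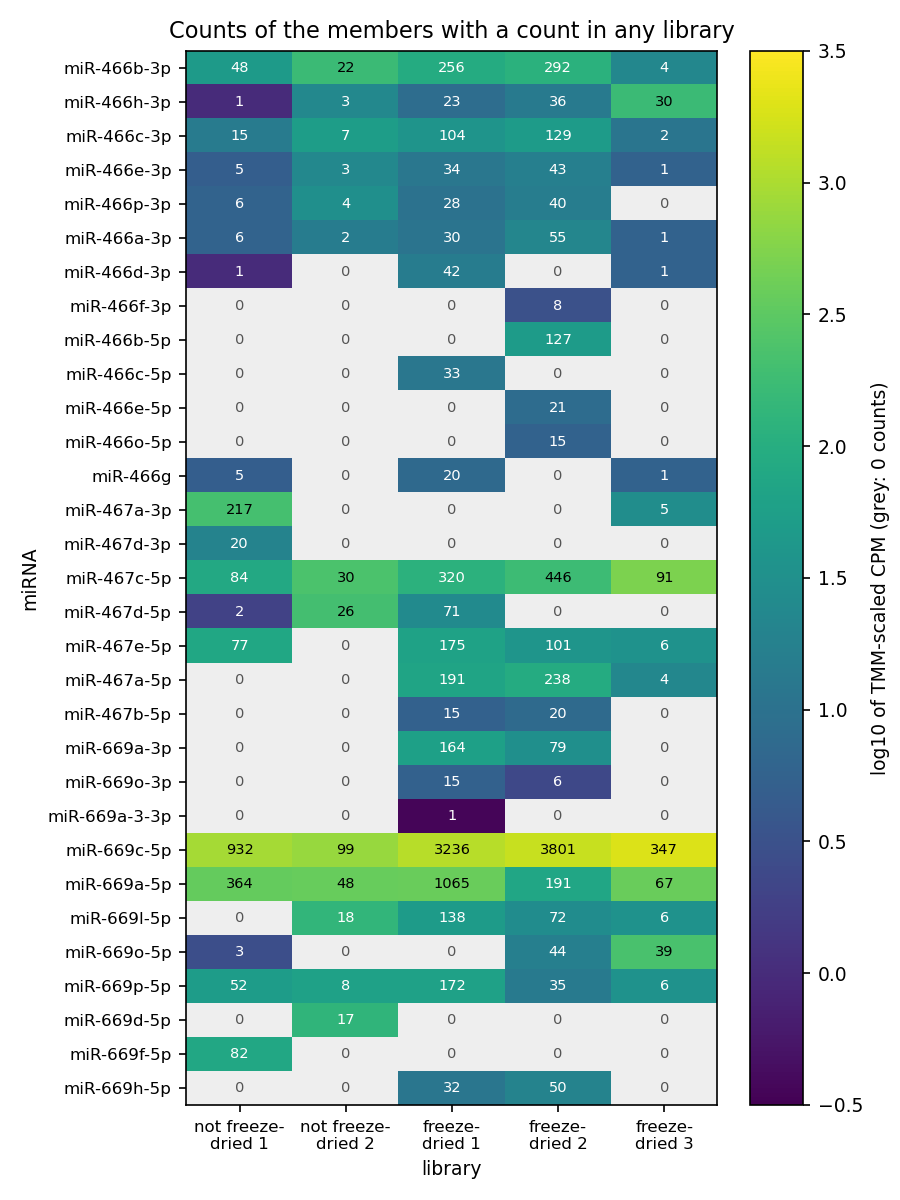
Raw counts (numbers in the cells) of the 31 members with a count in any of the 5 libraries, coloured by log10 of TMM-scaled CPM; grey cells hold 0 counts. miR-669c-5p is the brightest line across all libraries, and miR-467a-3p and miR-467a-5p fill opposite cells in the deep libraries.

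Counts of 0 in one deep library beside many counts in another were found in these families at a rate near that of the whole table. Of members with at least 50 and fewer than 500 counts in their highest deep library, 8 of 14 (57.1%) had 0 counts in another deep library, against 61.9% of all miRNAs in that range (122 of 197). This range was chosen after the counts were seen. One example is miR-669f-5p, from chr2:10467229-10467349, with 82 counts or 89.9 CPM without scaling in not freeze-dried 1. It had 0 in freeze-dried 1 and freeze-dried 2, where 3 counts would be 1.03 and 1.21 CPM. miR-669d-5p had 17 counts in not freeze-dried 2 and 0 elsewhere, and miR-669h-5p had 32 and 50 counts in freeze-dried 1 and 2 and 0 elsewhere.

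The number of members with a count was 18 and 13 without freeze-drying and 22, 22 and 16 with it, so the 2 shallow libraries had the fewest. Thinned to 131507 counts, the depth of the shallowest library, the libraries would hold 13.1, 13.0, 17.9, 18.8 and 14.6 members on average. Over the whole table the same thinning gives 299, 315, 333, 299 and 323 miRNAs, so that freeze-dried 2, which had the most members at that depth, was among the lowest there. A count in all 5 libraries was found for 9 of the 31 detected members (29.0%), against 209 of all 517 detected miRNAs (40.4%), and a count in 1 library alone for 9 (29.0%) against 159 (30.8%).

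Over the families as a whole the counts did not follow the number of hairpins: miR-669c had 8415 counts from 1 hairpin and miR-669a 1979 from 12, and miR-467c had 971 from 1 and miR-467a 655 from 10. Within 6 sets of members, picked for this likeness after the counts were seen, the shares lay near those of the hairpins. The sets hold 16 mature miRNAs and 4282 counts, 28.9% of the families' counts, and because of how they were picked their likeness to the hairpins is a description only. The opposite strands of 2 of their names did not follow it: miR-467d-5p had 71 counts from 1 hairpin in freeze-dried 1, against 191 from 10 for miR-467a-5p, and miR-669o-5p had 39 from 1 in freeze-dried 3, against 67 from 12 for miR-669a-5p. miR-669a-5p and miR-669p-5p have 12 and 2 hairpins, so that miR-669a has 85.7% of the pair's hairpins. miR-669a-5p made up 87.5% and 85.7% of the pair's counts in not freeze-dried 1 and 2 and 86.1%, 84.5% and 91.8% in freeze-dried 1, 2 and 3. Over all libraries its share was 86.4% (exact 95% interval 84.8% to 87.9%). The pair's level, in contrast, was 87.7 CPM in freeze-dried 2 and 408 to 449 CPM in the other 4.

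The 3p miRNAs of miR-466a, miR-466b, miR-466c, miR-466e and miR-466p have 1, 8, 3, 1 and 1 hairpins, or 7.14%, 57.1%, 21.4%, 7.14% and 7.14% of the 14 in all. Their shares of the 1137 counts of the set were 8.27%, 54.7%, 22.6%, 7.56% and 6.86%. In freeze-dried 1 this came to 30.0, 32.0, 34.7, 34.0 and 28.0 counts per hairpin. Shares near those of the hairpins were also found where a strand was seen in few libraries. miR-467a-5p, with 10 hairpins against 1 of miR-467b-5p (90.9%), had 92.7% and 92.2% of the pair's counts in freeze-dried 1 and 2. miR-467a-3p made up 91.6% of its counts with miR-467d-3p in not freeze-dried 1, at the same ratio of hairpins. miR-669a-3p, taken with 11 of the 12 miR-669a hairpins because the 3p strand of hairpin 3 is listed apart as miR-669a-3-3p (1 count), against 1 of miR-669o-3p (91.7%), had 91.6% and 92.9% of the pair's counts in freeze-dried 1 and 2. miR-466b-5p, miR-466e-5p and miR-466o-5p, with 80.0%, 10.0% and 10.0% of their hairpins, had 77.9%, 12.9% and 9.20% of their counts in freeze-dried 2.

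The shares of a set add up to 100% and so are not independent, and some rest on fewer than 10 counts. In freeze-dried 2, miR-466a-3p at 9.84% and miR-466b-3p at 52.2% had exact 95% intervals that left out the share of hairpins. How reads that match several hairpins were counted is not given in the sources used here, and the mature sequences of these sets were not compared, so a read of one name and of another in a set cannot be told apart here. Summed, the miR-669a-5p and miR-669p-5p pair stood at 408 and 428 CPM without and 449, 87.7 and 415 with freeze-drying, at a log2 fold change of -0.38 (SE 0.89). The 3p set of miR-466 stood at 78.4 and 291 CPM without and 164, 217 and 45.5 with freeze-drying, at -0.33 (SE 1.34). With each set counted as 1, edgeR called 0 of 13 members or sets, of which 0 had an unadjusted p under 0.05, as 7 of all 322 tested had.

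**Figure D5:**
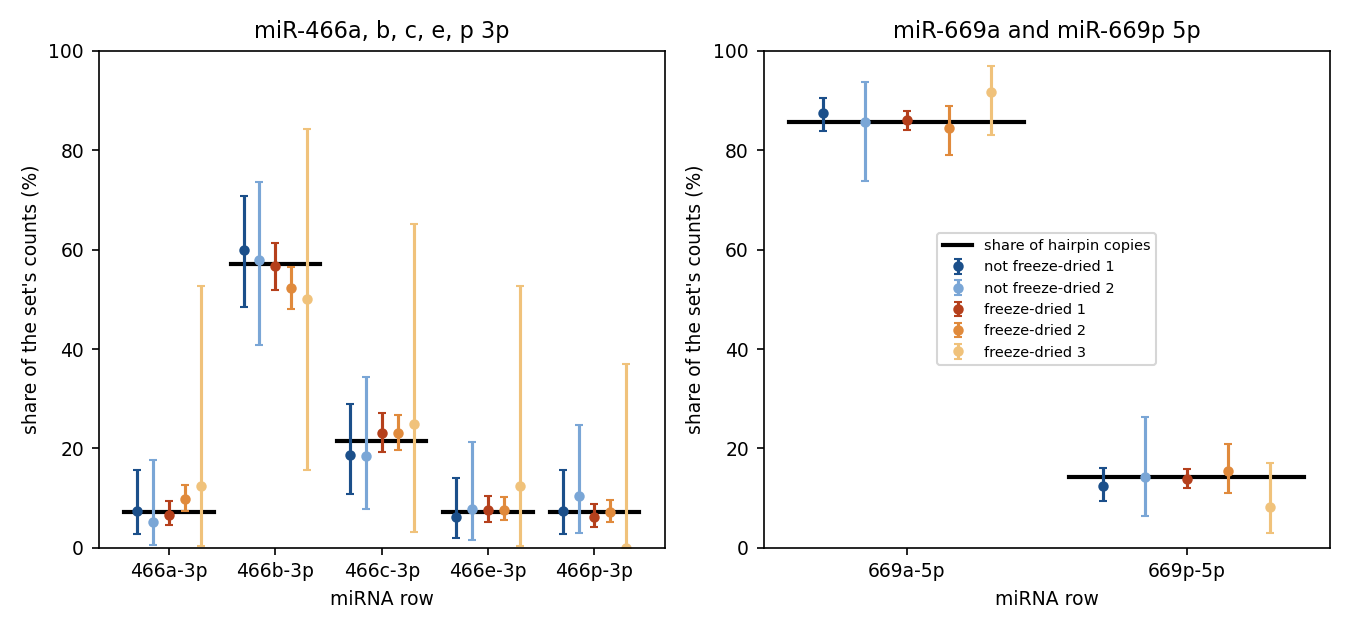
Share of a set's counts (percent, vertical axis) held by each of the 5 miR-466 3p miRNAs (left) and by miR-669a-5p and miR-669p-5p (right) in each library; points carry exact 95% binomial intervals, and black lines mark the share of annotated hairpins. miR-466b-3p, at 57.1% of hairpins, and miR-669a-5p, at 85.7%, lie on or near their lines in every library, with wide intervals in the shallow ones.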

How the data were processed

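The values are raw counts of reads for each mature miRNA in 5 EV libraries, deposited by the authors as 1 table. Tools named in the submitters' processing notes, with no role or order, are Bowtie 1.1.2, cutadapt 2.3, featureCounts 1.5.0-p1, FastQC and bcl2fastq 2.20, and the build named is GRCm38. Not given in the sources used here are the miRNA annotation release, how reads matching several places were treated, whether strand was used and whether duplicates were removed. For repeated hairpins each of these can change a count.

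Titles put 2 libraries in the not freeze-dried and 3 in the freeze-dried group. The labels name no separate cultures, and p-values therefore measure the spread between these samples alone, which may be technical. Depth ran from 131507 to 2914305 counts, a 22.2-fold range. Exact binomial (Clopper-Pearson) intervals from scipy 1.17.1 and floors of 3 counts cover counting error only, and PCR reads are not independent molecules.

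The groups were compared over the whole table in R 4.3.3 by the robust quasi-likelihood F test of edgeR 4.0.16, with TMM factors, filterByExpr by group and Benjamini-Hochberg adjustment over 327 tested miRNAs. An SE is the size of a log2 fold change over the square root of F. The fit was tested on simulated counts first.

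Hairpins were matched by RefSeq symbol or synonym and placed in GENCODE M21 (GRCm38); Mir466 was taken as the hairpin of miR-466a and Mir297-1 as one of miR-297a. Members given with full values are the 10 with the highest mean CPM, those counted in all 5 libraries, and those counted throughout one group and nowhere in the other. Other members are named by strand or as examples, chosen after their values were seen. The members, marker lists and rules were chosen with earlier results of these data known. Sums over members were given no test. The alternatives tried were 3 other normalizations, DESeq2 1.42.0, voom in limma 3.58.1, 2 other filters, thinning, leaving out each library, the 3 deep libraries alone, depth class as a term and the replicate number as a block.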

Additional observations from a re-analysis of the deposited data

How the results depend on the processing

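No member was called by edgeR, DESeq2 or limma-voom under any of the alternatives run, and the lowest adjusted p of a member ranged from 0.14, in the 3 deep libraries alone, to 0.999. Over all miRNAs, 1 was called lower in the 3 deep libraries alone and 4 with the replicate block. The replicate numbers do not come with a shared origin in the labels. Deviations of same-numbered libraries from their group means correlated at 0.17 and -0.12 over 327 miRNAs. With 2 not freeze-dried libraries, the deviations of one mirror those of the other. The 2 correlations are therefore not separate, and whether same-numbered libraries share an origin cannot be told from them.

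Of 209 log2 fold changes of the 14 members given in full, 31 changed sign, and the cause was not tested. miR-669c-5p, miR-669p-5p, miR-467a-3p, miR-467a-5p and miR-466h-3p kept their sign throughout. With the replicate block, miR-466b-3p was at 0.21, miR-669l-5p at 2.21, miR-669o-5p at -0.48, miR-466c-3p at 0.63 and miR-466e-3p at 0.44. With limma-voom, these 5 were at 0.67, 3.53, -0.23, 0.93 and 0.64. In the 3 deep libraries alone, miR-466b-3p was at 1.11, miR-669l-5p at 9.36, miR-467d-5p at 2.65, miR-466c-3p at 1.56 and miR-466e-3p at 1.54. With depth class as a term, miR-669l-5p was at 2.44 and miR-466e-3p at 0.041. miR-466c-3p, near 0, was at 0.089 with upper-quartile normalization, 0.067 with no filter and 0.0012 with 10 counts in 2 libraries required. Leaving out each library in turn gave -0.67 to 0.077 for miR-669a-5p, -0.0070 to 1.63 for miR-467c-5p, -1.06 to 0.68 for miR-466b-3p, -1.81 to 8.91 for miR-669l-5p, -4.38 to 2.09 for miR-467d-5p, -0.62 to 1.15 for miR-466c-3p, -0.90 to 1.21 for miR-466e-3p, -0.19 to 1.08 for miR-466a-3p, 4.61 to 9.80 for miR-669o-5p and 0.14 to 5.82 for miR-466h-3p.

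TMM scaling moved the not freeze-dried shares of the families to 0.204%, of miR-467 to 0.0410% and of 5p miRNAs to 0.172%. The freeze-dried share of the families was then 0.266%, and the groups, which overlapped without scaling, no longer did. Thinning moved the freeze-dried 3p share to 0.0218%. At 10 or more counts, 10 and 7 members were detected in not freeze-dried 1 and 2 and 5 in freeze-dried 3. Summing sets was chosen after seeing the data. A lone not freeze-dried library was assumed to vary like the freeze-dried ones.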
